A study of Mus musculus with 4 samples.

Results

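The collagen genes were followed across spatial transcriptomes of mouse brain organoids grown under 4 sources of retinoid signal. They were all gene symbols made of COL, a number, A and a number, which gave 43 genes, each listed in all 4 sections, of 22218 symbols in all. By the known structure of their proteins, 11 are fibrillar collagens, 8 belong to basement membranes and 24 are of other kinds. The last group held 9 fibril-associated, 6 beaded filament, 4 transmembrane and 2 network-forming collagens, 1 of anchoring fibrils and 2 further ones.

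The organoids came from mouse embryonic stem cells of the CARLIN line, which holds Cas9 and a barcode for lineage tracing, seeded at 5000 cells per well and embedded in Matrigel on day 6. From day 9, 1 group received all-trans retinoic acid (ATRA), which activates every retinoic acid receptor, at 1 µM. Another received BMS753, an agonist of receptor alpha, at 1 µM. Another received BMS961+BMS641, agonists of receptors gamma and beta, at 0.1 µM, so the doses of the BMS compounds differed. The VitaminA group received 2% B27 supplement with vitamin A, the precursor from which cells make retinoic acid. At 3 months, organoids were fixed, several were frozen in 1 mould, and cryosections were laid on printed arrays whose barcoded spots capture polyadenylated RNA. Each treatment has 1 section, so no difference between treatments could be tested and no p-value is given. The ranges given run over the 4 quadrants of a section, or over the 16 quadrant pairs of a comparison. They describe spread inside the sections only.

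Collagens are the triple-helical proteins of the extracellular matrix. Fibrillar collagens build the fibrils of skin, bone, tendon and cartilage, and fibril-associated collagens decorate them. Collagen IV forms the sheet of basement membranes, which in brain line the blood vessels and the outer surface under the meninges, while the neural tissue itself holds few fibrils. Fibroblasts, pericytes and endothelial cells are the usual sources of fibrillar and basement membrane collagens in brain, and some transmembrane collagens are made by neurons. Matrigel is an extract of mouse basement membrane and contains collagen IV protein, which an array that captures RNA does not read.

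The ATRA section had 593 spots, the BMS753 section 469, the BMS961+BMS641 section 365 and the VitaminA section 552. A spot is a small area that can hold several cells. The deposited values were normalised, but their sorted values rose in steps that were all whole multiples of the smallest step (tolerance 0.01), which returned the counts behind them. The section totals recovered in this way were 8197524 counts in ATRA, 4318400 in BMS753, 7525045 in BMS961+BMS641 and 7254611 in VitaminA. The median spot held 8923, 5916, 12116 and 10377 counts in the same order, summed over the count ranks that could be assigned to genes. Neuronal markers were listed in every section, 7 of 7, with a summed level between 735 and 1184 ppm (parts per 1000000 of a section's summed signal).

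The spots of the retinoid sections were not independent of each other. BMS753 and ATRA shared 324 grid positions, BMS961+BMS641 and ATRA 314, and BMS961+BMS641 and BMS753 269. At shared positions the total counts of a spot followed each other, with Spearman correlations over positions of 0.863, 0.909 and 0.736 in the same order. For 23.8%, 30.3% and 22.3% of those spots, the most similar expression profile in the other section was that of the same position, where 1 position in all would be 0.309%, 0.318% and 0.372%. With VitaminA the same share was 0.719% for ATRA, 1.13% for BMS753 and 0.667% for BMS961+BMS641, and the correlations of totals lay between 0.133 and 0.304. What the retinoid sections share (barcodes, array or reads) was not tested. Each comparison was therefore also run without the positions that both its sections use, and some of those values are given. This left BMS961+BMS641 with 65 spots against VitaminA, 51 against ATRA and 96 against BMS753. BMS753 was left with 116 spots against VitaminA and 145 against ATRA, and VitaminA with 135 against ATRA.

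**Figure D1:**
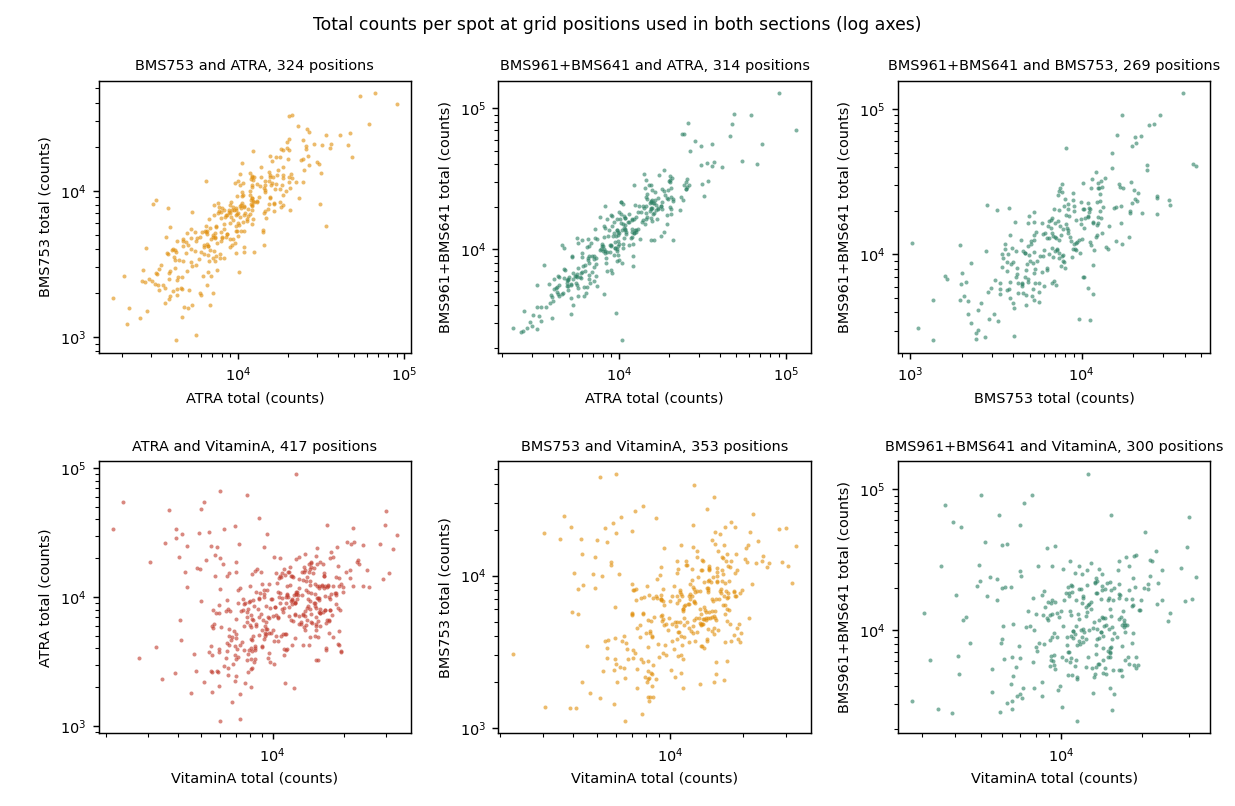
Total counts per spot (both axes in counts, log scale) at grid positions used in both of 2 sections, 1 point per position. The pairs of retinoid sections in the upper row follow a diagonal (Spearman 0.736 to 0.909), while the pairs with VitaminA in the lower row scatter widely (0.133 to 0.304).

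Collagen transcripts were a small part of each section. Of the counts summed over ranks that could be assigned to genes, they made up 0.534% in ATRA, 0.453% in BMS753, 0.362% in BMS961+BMS641 and 0.496% in VitaminA. The median spot had 19, 17, 20 and 21.5 of the 43 genes in the same order. The number of collagen genes in a spot followed its total counts, with Spearman correlations over spots between 0.877 and 0.937. Spots at the edge of the tissue and in its interior had nearly the same share of collagen counts, 0.525% and 0.538% in ATRA, 0.451% and 0.454% in BMS753, 0.368% and 0.355% in BMS961+BMS641, and 0.506% and 0.491% in VitaminA. In sections of this kind, fewer cells of a type and less RNA per cell cannot be told apart.

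The summed levels of the classes, which are not centred on all genes, differed between sections, and single genes made up much of some sums. Fibrillar collagens summed to 387 ppm in ATRA (quadrants 373 to 401), 849 in BMS753 (747 to 987), 995 in BMS961+BMS641 (954 to 1035) and 975 in VitaminA (948 to 1017). The ATRA quadrants all lay below those of the other sections. Col5a1 alone accounted for 719.8 ppm of the sum in BMS961+BMS641 and 607 ppm in VitaminA, against 91.0 ppm in ATRA and 174 in BMS753. Basement membrane collagens summed to 403 ppm in ATRA (376 to 423), 697 in BMS753 (647 to 745), 396 in BMS961+BMS641 (371 to 414) and 852 in VitaminA (836 to 885). The VitaminA sum was the highest, and 366 ppm of it was Col15a1. The other collagens summed to 3948 ppm in ATRA (3849 to 4079), 2259 in BMS753 (2174 to 2407), 1350 in BMS961+BMS641 (1305 to 1418) and 2344 in VitaminA (2248 to 2380). They made up 83.3% of all collagen signal in ATRA, 59.4% in BMS753, 49.3% in BMS961+BMS641 and 56.2% in VitaminA. Gene by gene, the median log2 ratio of ATRA over VitaminA, centred as described below, was 0.0084 for fibrillar genes. It was 0.12 for basement membrane genes and 0.74 for the others.

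**Figure D2:**
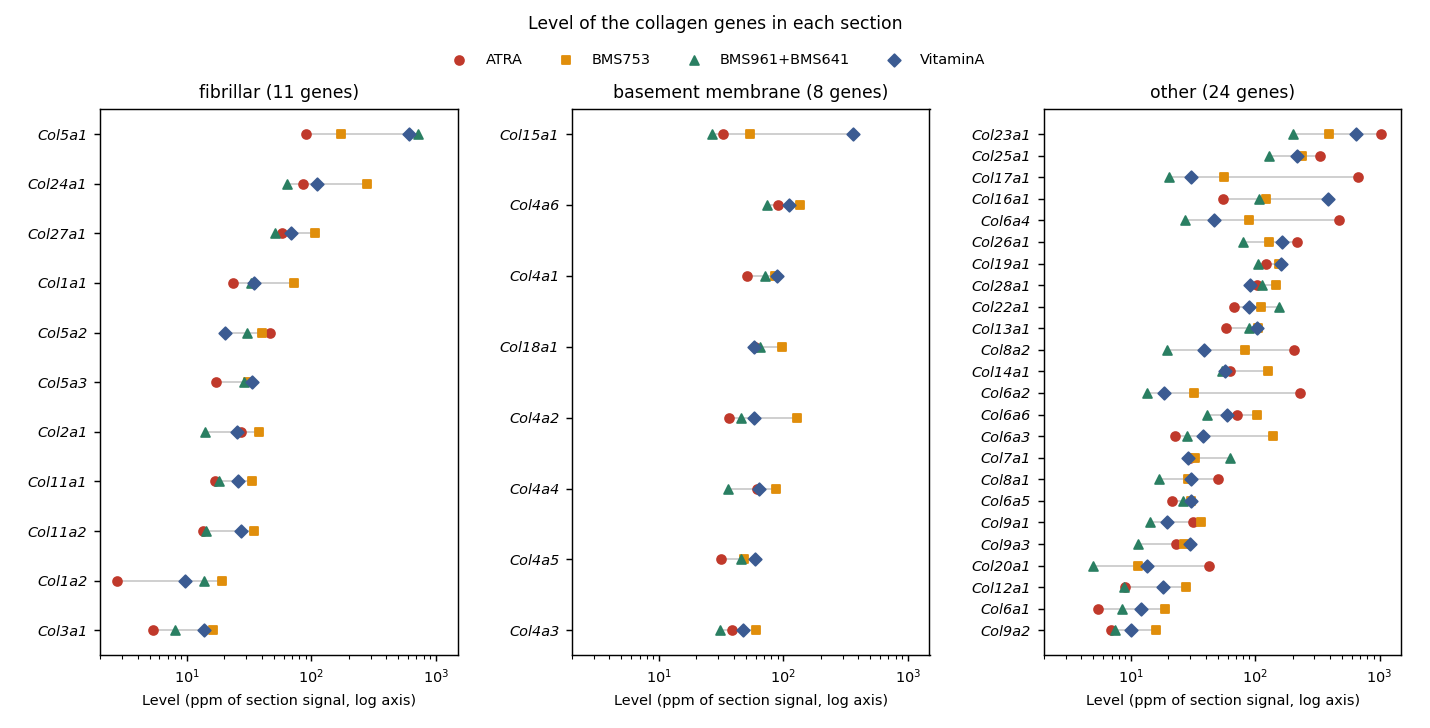
Level of each of the 43 collagen genes (x axis, ppm of the section's signal, log scale) by class, with 1 symbol per section and a grey line over the range of the 4 sections. Col17a1, Col6a4 and Col6a2 stand apart in ATRA (674, 471 and 229 ppm), and Col15a1 and Col16a1 in VitaminA (366 and 382 ppm).

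How often a collagen gene was counted followed its length in the genome. Over the 43 genes, the Spearman correlation of genomic span with the share of spots was 0.55 in ATRA, 0.79 in BMS753, 0.78 in BMS961+BMS641 and 0.74 in VitaminA. Over all genes with a known span it was between 0.80 and 0.84. The points share a library and its depth, and the spans come from RefSeq's GRCm38.p6 annotation. Collagen genes are long, with a median span of 114 kb, against between 18.4 and 19.6 kb over all genes of a section. Levels in ppm therefore serve here to compare sections for 1 gene, or for 1 class, and genes are ranked by level only per kb of span.

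Against genes of like span (20 groups of equal size), 14 of the 43 genes lay above the upper quartile of the share of spots in ATRA, 16 in BMS753, 6 in BMS961+BMS641 and 14 in VitaminA. Below the lower quartile lay 6, 5, 10 and 9 in the same order. By definition, about 1 in 4 of all genes lies above the upper quartile and about 1 in 4 below the lower. The counts are therefore given as description and not as a result about the family. Col1a1, which encodes the main chain of collagen I, lay above the upper quartile in all 4 sections, with 27.7% of spots in ATRA, 21.3% in BMS753, 29.6% in BMS961+BMS641 and 39.9% in VitaminA. Genes of its span had medians of 6.75%, 7.68%, 10.1% and 9.78%. Col7a1 and Col16a1 also lay above it in all 4 sections. Col4a5 and Col12a1, which encode a basement membrane chain and a collagen of dense connective tissue, lay below the lower quartile in all 4.

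**Figure D3:**
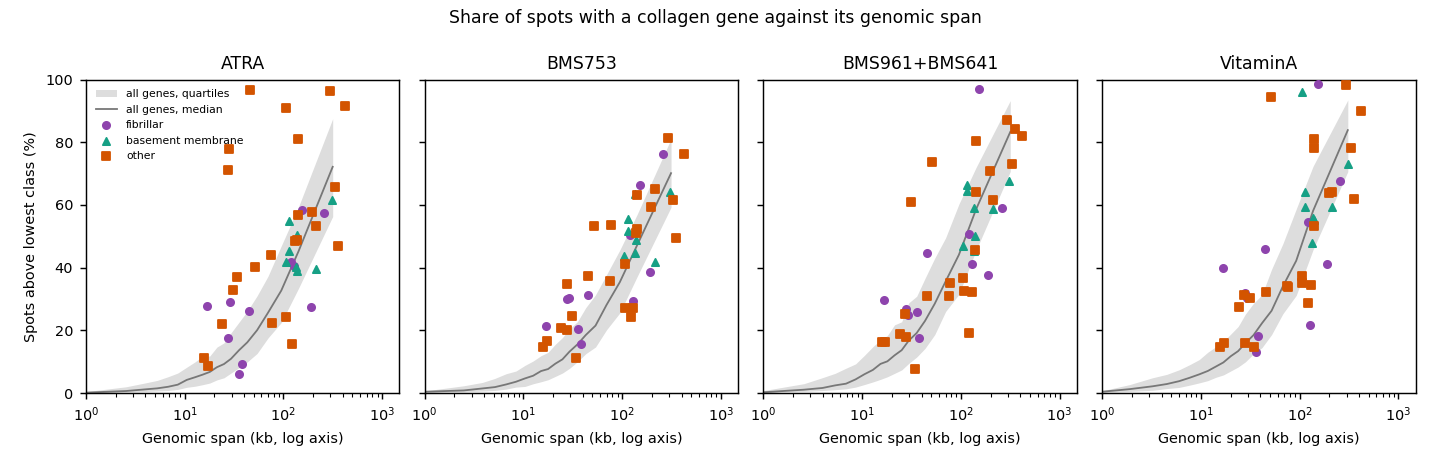
Share of spots with the gene (y axis, percent) against genomic span (x axis, kb, log scale) for the 43 collagen genes in each section, with the median and quartiles of all genes in 20 groups of span. Between 20 and 27 of the 43 lie within the quartiles, where by definition about 1 in 2 of all genes lies. The largest distances above the median are those of Col17a1, Col6a2, Col8a2 and Col6a4 in ATRA (58.3 to 80.4 points), Col16a1 in BMS753 (31.8), Col16a1, Col7a1 and Col5a1 in BMS961+BMS641 (38.4 to 45.2), and Col16a1, Col15a1 and Col5a1 in VitaminA (40.4 to 68.1).

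Col17a1, a transmembrane collagen of the hemidesmosomes that anchor epithelium, had the largest difference of all members. Its level was 674 ppm in ATRA (quadrants 574 to 760), 56.1 ppm in BMS753 (50.1 to 59.9), 20.1 ppm in BMS961+BMS641 (17.1 to 22.6) and 30.6 ppm in VitaminA (22.1 to 41.4). It was counted in 96.6% of ATRA spots (95% exact interval 94.8% to 97.9%), against 37.3% of BMS753 spots, 31.0% of BMS961+BMS641 spots and 32.2% of VitaminA spots. All ATRA quadrants stood above all quadrants of the other sections. The gene had 5044 counts in ATRA (exact Poisson interval 4906 to 5185), 254 in BMS753, 171 in BMS961+BMS641 and 233 in VitaminA. These intervals cover counting error only. No spot held more than 1.33% of the ATRA counts of Col17a1, so the difference was spread over the section. Per kb of span, Col17a1 was the first of the 43 in ATRA, with 14.8 ppm per kb.

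Other genes were high in ATRA as well. Col6a4, a chain of the beaded filaments of collagen VI, had 471 ppm in ATRA, 88.9 in BMS753, 27.2 in BMS961+BMS641 and 47.0 in VitaminA, and was counted in 91.1% of ATRA spots. Col6a2, another chain of collagen VI, had 229 ppm in ATRA, 32.1 in BMS753, 13.6 in BMS961+BMS641 and 18.5 in VitaminA. Col8a2, a network-forming collagen of the corneal endothelium, had 206 ppm in ATRA, 82.6 in BMS753, 19.7 in BMS961+BMS641 and 39.1 in VitaminA. For each of these genes the ATRA quadrants lay above those of every other section. Col8a1, which pairs with Col8a2, had 50.7 ppm in ATRA, 28.8 in BMS753, 16.9 in BMS961+BMS641 and 30.7 in VitaminA. Its ATRA quadrants also lay above those of every other section. The collagen VI chains Col6a1 and Col6a3 did not share the pattern. Col6a1 had 5.48 ppm in ATRA, 18.7 in BMS753, 8.50 in BMS961+BMS641 and 12.0 in VitaminA, and Col6a3 had 22.8, 140, 28.4 and 38.3 ppm in the same order.

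In VitaminA the corresponding genes were Col15a1 and Col16a1. Col15a1, a basement membrane collagen of vessels, muscle and nerve, had 32.5 ppm in ATRA, 53.6 in BMS753, 26.9 in BMS961+BMS641 and 366 ppm in VitaminA. It was counted in 41.8%, 43.7% and 46.8% of spots in the retinoid sections and in 96.0% of VitaminA spots. Col16a1, a fibril-associated collagen, had 54.6 ppm in ATRA, 123 in BMS753, 108 in BMS961+BMS641 and 382 ppm in VitaminA. All VitaminA quadrants of both genes lay above all quadrants of the retinoid sections.

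The promoters of these 6 genes are shown because the level of each gene set 1 section apart, as just described. Each runs from 250 bases before to 50 bases after the start given by RefSeq (GRCm38.p6), 5′ to 3′ on the strand of the gene. They lie on the minus strand for Col17a1 (chr19:47691993-47692292), Col6a4 (chr9:106096642-106096941) and Col6a2 (chr10:76623355-76623654, the first of its listed starts). They lie on the plus strand for Col8a2 (chr4:126286544-126286843), Col15a1 (chr4:47207762-47208061) and Col16a1 (chr4:130047590-130047889). Capitals mark matches on either strand to GGGCGG (the GC box), to TATAAA (the TATA box) or to CCAAT (the CCAAT box).
Col17a1: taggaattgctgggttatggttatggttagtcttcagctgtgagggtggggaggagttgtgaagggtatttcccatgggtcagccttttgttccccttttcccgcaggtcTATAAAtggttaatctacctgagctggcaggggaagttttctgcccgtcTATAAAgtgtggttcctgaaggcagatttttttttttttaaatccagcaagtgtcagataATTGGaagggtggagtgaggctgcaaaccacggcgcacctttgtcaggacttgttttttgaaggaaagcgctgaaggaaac
Col6a4: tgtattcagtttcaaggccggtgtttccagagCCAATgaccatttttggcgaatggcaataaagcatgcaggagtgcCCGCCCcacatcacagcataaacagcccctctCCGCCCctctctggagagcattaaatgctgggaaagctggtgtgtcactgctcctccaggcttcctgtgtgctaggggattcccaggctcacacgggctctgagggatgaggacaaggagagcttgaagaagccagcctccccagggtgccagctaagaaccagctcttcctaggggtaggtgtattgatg
Col6a2: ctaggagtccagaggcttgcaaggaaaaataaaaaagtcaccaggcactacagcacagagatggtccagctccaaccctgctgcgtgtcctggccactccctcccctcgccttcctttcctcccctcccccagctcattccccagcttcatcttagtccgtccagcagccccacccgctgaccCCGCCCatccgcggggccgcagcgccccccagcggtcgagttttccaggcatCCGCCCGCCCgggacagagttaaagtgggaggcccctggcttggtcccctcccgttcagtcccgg
Col8a2: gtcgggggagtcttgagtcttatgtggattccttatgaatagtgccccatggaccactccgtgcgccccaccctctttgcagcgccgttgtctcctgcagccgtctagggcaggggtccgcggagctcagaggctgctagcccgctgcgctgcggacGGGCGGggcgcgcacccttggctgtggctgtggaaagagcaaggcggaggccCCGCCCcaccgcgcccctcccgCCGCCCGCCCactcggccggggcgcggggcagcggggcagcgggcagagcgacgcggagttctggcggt
Col15a1: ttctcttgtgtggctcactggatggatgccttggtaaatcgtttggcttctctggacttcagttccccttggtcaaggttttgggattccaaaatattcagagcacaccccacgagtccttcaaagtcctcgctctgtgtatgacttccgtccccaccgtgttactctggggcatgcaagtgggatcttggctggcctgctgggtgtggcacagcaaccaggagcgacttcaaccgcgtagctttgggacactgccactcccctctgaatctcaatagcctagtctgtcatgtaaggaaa
Col16a1: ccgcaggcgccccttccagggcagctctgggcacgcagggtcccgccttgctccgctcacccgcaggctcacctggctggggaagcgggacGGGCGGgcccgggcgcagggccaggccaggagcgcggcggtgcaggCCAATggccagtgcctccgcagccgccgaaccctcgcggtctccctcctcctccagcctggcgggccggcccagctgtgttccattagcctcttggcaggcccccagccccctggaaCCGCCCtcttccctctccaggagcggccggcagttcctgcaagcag

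Col17a1 holds 2 matches to TATAAA and has 46.3% G and C. Col6a2, Col8a2 and Col16a1 have 64.3%, 71.7% and 74.3% G and C, with 3, 4 and 2 matches to GGGCGG. Some of these overlap. Col15a1 holds no match to the letters searched. A promoter was listed for 34 of the 43 members and for 27025 symbols in all, taking the first start of each. GGGCGG was in 64.7% of the 34 and in 35.9% of all promoters, TATAAA in 11.8% and 14.2%, and CCAAT in 35.3% and 37.9%. The 34 had a median of 60.2% G and C, against 52.7% over all promoters. Of the hexamers that retinoic acid receptors bind, only the forms AGGTCA and AGTTCA were searched, on both strands. AGGTCA was in 8 of the 34 (23.5%), against 16% of all promoters, and AGTTCA in 2 (5.88%), against 14%. None of the 6 promoters shown holds either of them. Other forms of the hexamer, such as GGGTCA, were not searched, so the promoters are not shown to lack such sites. A direct repeat of AGGTCA spaced by 5 letters, also searched on both strands, was in 0 of the 34 and in 2 of all promoters. A match is only a run of letters, and whether a receptor binds there was not measured.

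**Figure D4:**
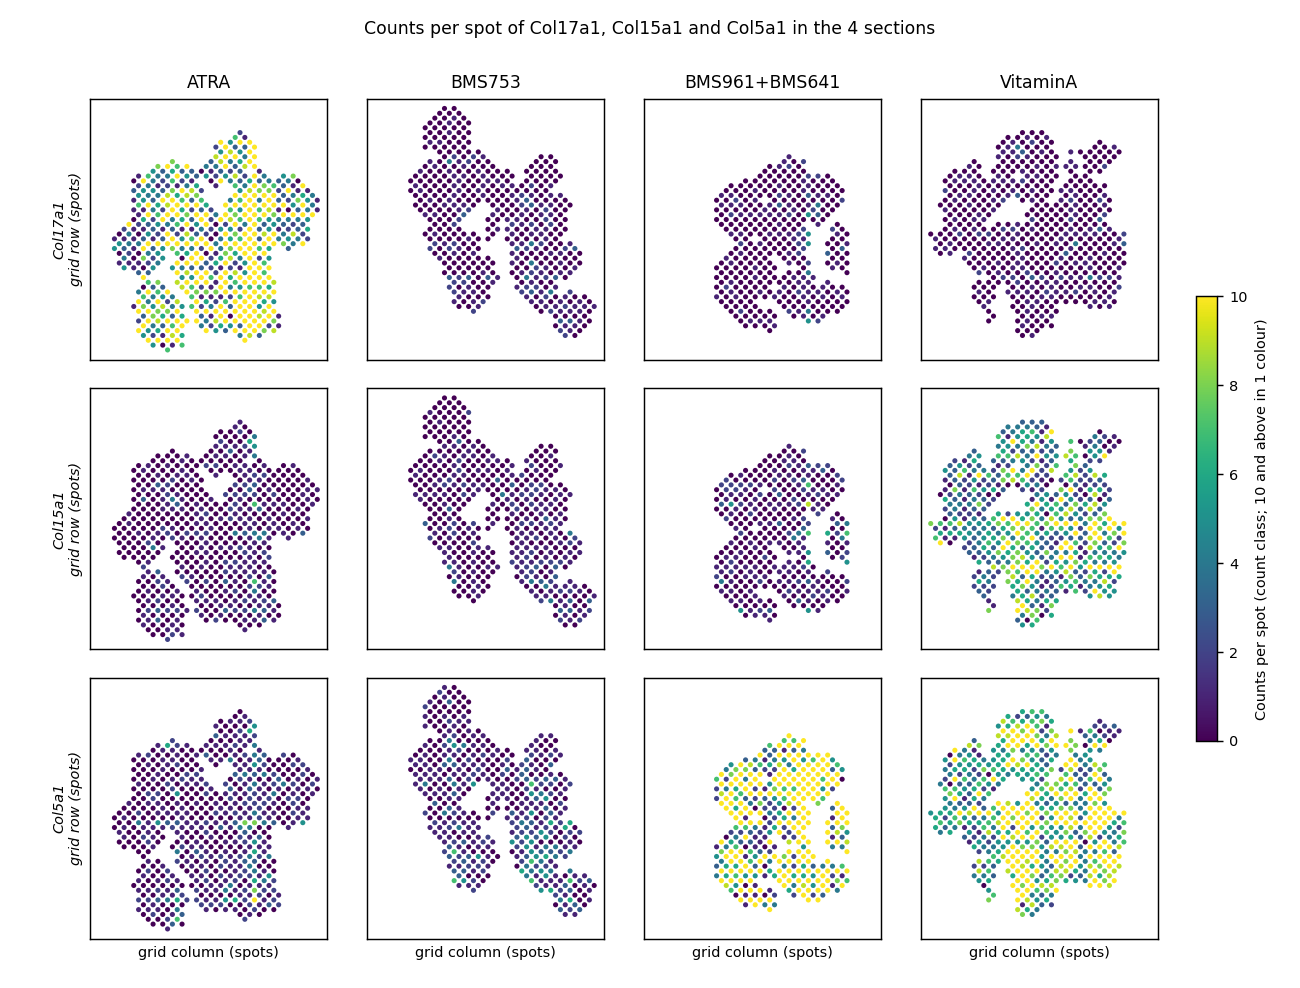
Counts per spot of Col17a1, Col15a1 and Col5a1 on the array grid (axes in grid rows and columns) of the 4 sections, with spots of 10 and more counts in 1 colour. Col17a1 has a median of 6 counts per spot in ATRA and 0 elsewhere, Col15a1 of 5 in VitaminA and 0 elsewhere, and Col5a1 of 9 in BMS961+BMS641 and 7 in VitaminA, against 1 in both ATRA and BMS753.

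The comparison of ATRA with VitaminA sets the ligand of all receptors against the vitamin. Ratios of levels are log2 values with 1 ppm added, centred on the median of all genes compared, and members at least 2-fold apart are counted. Without centring, the median of all genes lay at -0.60 in this comparison, 0.14 for BMS753 over VitaminA, -0.52 for BMS961+BMS641 over VitaminA, 0.72 for BMS753 over ATRA, 0.10 for BMS961+BMS641 over ATRA and -0.62 for BMS961+BMS641 over BMS753. Of the 43 collagen genes, 10 were at least 2-fold higher in ATRA and 3 lower. Over all genes compared, 16.7% were higher and 15.2% lower, and 31.8% differed in either direction, so the 30.2% of collagen genes is near that background and is not a result about the family. The median of the members was 0.23, where the quartiles of all genes were -0.60 and 0.61. It turned to -0.017 with the lowest class kept as deposited and to -0.37 without centring. By class, 1 fibrillar gene was higher and 1 lower of 11, 0 were higher and 1 lower of the 8 basement membrane genes, and 9 were higher and 1 lower of the 24 others.

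The highest ratios were those of Col17a1 (5.01, quadrant pairs 4.37 to 5.64), Col6a2 (4.15, 3.86 to 4.36), Col6a4 (3.90, 3.66 to 4.14) and Col8a2 (2.96, 2.70 to 3.39). Without the grid positions that both sections use, they were 5.10, 4.43, 3.64 and 3.32. Col20a1, a fibril-associated collagen, followed at 2.20 with 42.6 ppm in ATRA and 13.4 ppm in VitaminA. Col5a2, a chain of collagen V, which starts and limits fibrils, was 1.75 with 46.4 ppm in ATRA and 20.4 ppm in VitaminA. Col8a1, the partner of Col8a2, was 1.30, and Col9a1, a chain of the cartilage collagen IX, was 1.28. Among transmembrane collagens, Col23a1 was 1.26 (1037 ppm in ATRA, 653 ppm in VitaminA). Col25a1, a collagen of neurons that is also found in amyloid plaques, was 1.20 (331 ppm in ATRA, 217 ppm in VitaminA).

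The genes lower in ATRA were Col15a1 (-2.86, -3.17 to -2.53), Col16a1 (-2.19, -2.71 to -1.72) and Col5a1 (-2.13, -2.47 to -1.95). Col5a1, the main chain of collagen V, had 91.0 ppm in ATRA (75.2 to 101.1) and 607 ppm in VitaminA (586 to 641). Without shared positions the ratios were -2.89, -2.12 and -2.13. In shares of spots, 6 of these genes stayed 2-fold apart, Col17a1, Col6a2, Col6a4, Col8a2, Col20a1 and Col5a2, while Col15a1, Col16a1 and Col5a1 were at -0.72, -0.75 and -0.28. Of the other fibrillar chains, Col1a2 had 2.71 ppm in ATRA and 9.60 ppm in VitaminA, and Col3a1, the chain of collagen III, had 5.35 and 13.8 ppm. Col2a1, the cartilage collagen, had 27.4 ppm in ATRA and 25.1 ppm in VitaminA, and its partner Col11a1 16.7 and 25.7 ppm. The basement membrane chains Col4a1 (50.8 ppm in ATRA, 88.7 ppm in VitaminA) and Col4a2 (36.8 and 58.5 ppm) were not 2-fold apart after centring, nor was Col18a1, the source of endostatin (59.5 and 58.1 ppm).

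**Figure D5:**
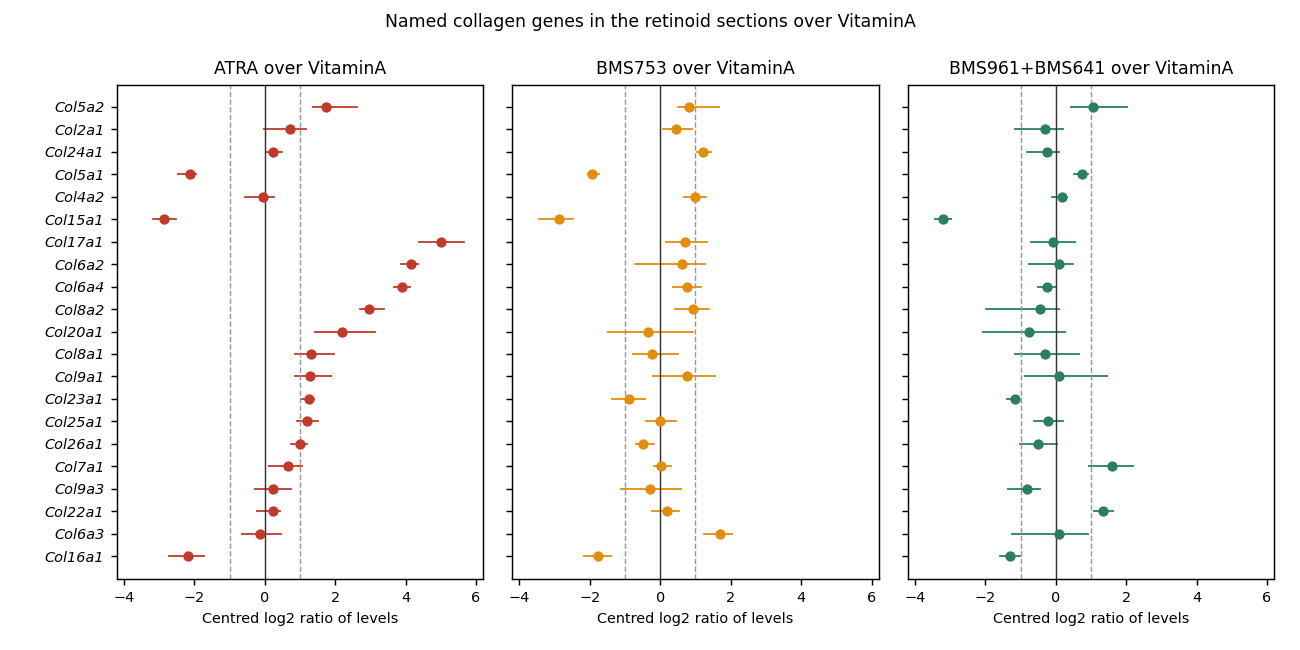
Centred log2 ratio of levels (x axis) in ATRA, BMS753 and BMS961+BMS641 over VitaminA for the 21 collagen genes at least 2-fold apart in some comparison and at 20 ppm or more in either section. Points are the sections, bars run over the 16 pairs of quadrants and dashed lines mark 2-fold. Col15a1 and Col16a1 lie left of the 2-fold line in all 3 panels, while Col17a1, Col6a2, Col6a4 and Col8a2 lie far right in ATRA alone (2.96 to 5.01).

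BMS753 over VitaminA asks the same of receptor alpha alone. Here 2 collagen genes were at least 2-fold higher and 3 lower. That is 11.6% of the members, against 10.8% of all genes higher, 15.0% lower and 25.8% in either direction. The median of the members was 0.22, and -0.069 with the lowest class kept. Col6a3, the large chain of collagen VI, was higher (1.70, 1.25 to 2.04) with 140 ppm in BMS753 and 38.3 ppm in VitaminA. Col24a1, a minor fibrillar collagen of bone, was higher (1.20, 1.04 to 1.45) with 282 and 111 ppm. Col15a1 (-2.89), Col5a1 (-1.94) and Col16a1 (-1.77) were lower. Without shared positions these 5 ratios were 1.87, 1.12, -3.22, -2.11 and -1.54, and 10 members were 2-fold apart in place of 5.

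For BMS961+BMS641 over VitaminA, 3 members were higher and 3 lower, 14.0% of the family, where 17.5% of all genes were higher, 15.2% lower and 32.7% differed in either direction. The median of the members was 0.039, and it was negative under 8 of the 11 alternatives. Col7a1, the collagen of the anchoring fibrils under stratified epithelium, was higher (1.59, 0.95 to 2.18) with 62.2 ppm in BMS961+BMS641 and 29.0 ppm in VitaminA. Col22a1, a fibril-associated collagen of tissue junctions, was higher (1.33, 1.07 to 1.63) with 156 and 88.6 ppm. Col5a2 was at 1.07, with quadrants that overlapped. Col15a1 (-3.20), Col16a1 (-1.30) and Col23a1 (-1.17) were lower. Without shared positions 9 members in place of 6 were 2-fold apart, 20.9% of the members against 41.1% of all genes. The 6 ratios were then 1.47, 1.18, 1.40, -3.05, -1.18 and -1.25. Col5a1, at 719.8 ppm in BMS961+BMS641 and 607 ppm in VitaminA, was not among them. Col15a1 and Col16a1 were lower in each retinoid section, but the 3 comparisons share the VitaminA section.

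Between the retinoid sections, BMS753 over ATRA had 3 members higher and 9 lower, 27.9% of the family against 29.1% of all genes (12.3% higher, 16.8% lower). The lower ones were led by Col17a1 (-4.29), Col6a2 (-3.52), Col6a4 (-3.12), Col20a1 (-2.54), Col23a1 (-2.14) and Col8a2 (-2.03), with Col8a1, Col26a1 and Col25a1 between -1.52 and -1.21. Higher were Col6a3 (1.85), Col1a2 (1.72, 19.2 ppm in BMS753 and 2.71 ppm in ATRA) and Col4a2 (1.05, 128 and 36.8 ppm). Col4a2 was at 0.75 without shared positions, under the 2-fold line.

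BMS961+BMS641 over ATRA, where the dose was lower as well, had 3 members higher and 12 lower, 34.9% against 35.6% of all genes (18.2% higher, 17.4% lower). Col5a1 was the highest (2.87, 2.55 to 3.25). Col1a2 was at 1.89 with 13.8 ppm in BMS961+BMS641 and 2.71 ppm in ATRA, and Col22a1 at 1.09. Col17a1 (-5.10), Col6a4 (-4.17), Col6a2 (-4.08), Col8a2 (-3.42) and Col20a1 (-2.98) were the lowest, and Col23a1, Col8a1, Col26a1, Col25a1, Col9a1, Col9a3 and Col2a1 lay between -2.45 and -1.03. The quadrants of Col9a1 and Col2a1 overlapped between sections. Col22a1, Col9a3 and Col2a1 were under 2-fold without shared positions, at 0.92, -0.69 and -0.95.

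BMS961+BMS641 over BMS753, at doses of 0.1 and 1 µM, had 3 members higher and 4 lower, 16.3% against 30.0% of all genes (17.1% higher, 12.9% lower). Col5a1 (2.66), Col7a1 (1.52) and Col22a1 (1.10) were higher. Col6a3 (-1.64), Col24a1 (-1.50), Col8a2 (-1.39) and Col6a4 (-1.05) were lower. Without shared positions 11 members in place of 7 were 2-fold apart, 25.6% of the members against 38.3% of all genes. Over the 6 comparisons, 21 of the 43 genes were 2-fold apart in none, among them Col1a1, Col3a1, Col11a1, Col18a1 and 5 of the 6 collagen IV chains. How many of all genes were apart in none was not counted, so this is not a result about the family.

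The level of Col1a1 rested largely on a few spots in BMS753 and BMS961+BMS641, but not in ATRA or VitaminA. At grid row 21 and column 41 its counts were 20 in BMS961+BMS641, 15 in BMS753 and 10 in ATRA, against 0 in VitaminA. Col1a2, which pairs with Col1a1 in collagen I, and Col3a1 had 0 counts there in all 4 sections. In ATRA and BMS961+BMS641 this was the spot with most Col1a1 counts, and the next spots had 5 and 8. In BMS753 another position, at row 34 and column 38, had 26. Without row 21 and column 41 the level of Col1a1 was 22.2 ppm in ATRA, 35.8 in BMS753, 12.5 in BMS961+BMS641 and 34.4 ppm in VitaminA, in place of 23.3, 72.9, 32.9 and 34.4 ppm. Without row 34 and column 38 as well, it was 22.2 ppm in ATRA, 21.7 in BMS753, 12.5 in BMS961+BMS641 and 34.5 ppm in VitaminA, so the first place of BMS753 rested on these 2 positions. The gene with the same leading position in all 3 retinoid sections was Col9a1, which makes 1 of 43 members. Over all genes with 5 or more counts in a spot of each of those sections, 102 of 4082 (2.50%) had it.

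Within sections, the spatial order of collagen genes lay close to that of other genes counted in as many spots. Moran's I, which is 0 without spatial order, had a median over members of 0.063 in ATRA, 0.043 in BMS753, 0.053 in BMS961+BMS641 and 0.036 in VitaminA. Genes with a share of spots within 2 points had medians of 0.060, 0.044, 0.047 and 0.029. The total counts of a spot had a Moran's I between 0.323 and 0.562. The highest excess over genes of like share was that of Col3a1 in VitaminA, 0.074.

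Chains that assemble into 1 protein were mostly counted somewhat more often in spots with their partner, and the spots with a partner were deeper. Col4a2 was counted in 47.2% of ATRA spots with Col4a1 and in 32.1% of those without it, in 71.5% and 55.1% in BMS753, in 64.9% and 47.2% in BMS961+BMS641, and in 61.0% and 47.0% in VitaminA. The median total of spots with Col4a1 was 11736 counts in ATRA, 8066 in BMS753, 15251 in BMS961+BMS641 and 11434 in VitaminA, against 7138, 4223, 7304 and 8112 without it. Col1a2 was counted in 30.0% of BMS753 spots with Col1a1 and in 17.9% of those without, and in 10.4% and 4.43% in ATRA, 33.3% and 23.0% in BMS961+BMS641 and 13.6% and 13.0% in VitaminA. In VitaminA, Col4a6 was counted in 73.4% of spots with Col4a5 and in 72.9% without, and Col6a2 in 14.8% of spots with Col6a1 and in 16.4% without, the 1 of the pairs and sections examined that ran the other way.

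A few enzymes that build collagen differed strongly. In the comparisons with VitaminA, the share of their list that differed in either direction lay near that of all genes or below it. Of 31 genes for the modification, processing and cross-linking of collagen, 30 were listed, and 25 were compared for ATRA over VitaminA, of which 6 were higher and 1 lower, where 16.7% of all genes were higher and 15.2% lower. Loxl3, which cross-links collagen and elastin, had 315 ppm in ATRA and 9.57 ppm in VitaminA (5.50). Adamts14 (1197 and 67.4 ppm, 4.73) and Adamts2 (1495 and 120 ppm, 4.22), which remove the amino propeptide of procollagen, were counted in 98.8% and 99.2% of ATRA spots. In BMS753 they had 65.9 and 186 ppm, and in BMS961+BMS641 36.5 and 89.8 ppm. For BMS961+BMS641 over VitaminA 6 of 27 were higher and 2 lower, against 17.5% and 15.2% of all genes. Tll1, which removes the carboxy propeptide, had 309 ppm in BMS961+BMS641 and 53.8 ppm in VitaminA (3.02), and Adamts3 had 333 and 64.5 ppm (2.86). For BMS753 over VitaminA 2 of 26 were higher and 3 lower, against 10.8% and 15.0% of all genes. P3h2, a prolyl hydroxylase of basement membrane collagen, was lower in BMS753 (28.1 ppm against 132 ppm in VitaminA, -2.34) and in BMS961+BMS641 (34.7 ppm, -1.38). For BMS753 over ATRA, 2 of 25 list genes were higher and 8 lower, against 12.3% and 16.8% of all genes. For BMS961+BMS641 over ATRA, 4 of 22 were higher and 5 lower, against 18.2% and 17.4%.

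Among 11 receptors of collagen, 3 were higher and 1 lower in ATRA over VitaminA, 1 and 1 in BMS753, and 4 and 1 in BMS961+BMS641. Of all genes 31.8%, 25.8% and 32.7% differed in either direction in these comparisons, and counts over so few receptors are not a result about them. Lair1, an inhibitory receptor of immune cells, had 169 ppm in BMS961+BMS641, 72.5 ppm in BMS753 and 27.9 ppm in VitaminA. Mrc2, which takes up collagen fragments, had 192 ppm in BMS961+BMS641 and 46.7 ppm in VitaminA (2.53). Adgrg1, a receptor of collagen III in the developing cortex, had 91.3 ppm in ATRA and 51.8 ppm in VitaminA (1.40). The integrin chain Itga11 had 63.1 ppm in BMS753 and 199.9 ppm in VitaminA (-1.79). Ddr2, a receptor kinase for fibrillar collagen, had 24.8 ppm in ATRA and 90.1 ppm in VitaminA (-1.22).

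Of 15 laminins and other partners of collagen IV, 2 were higher and 3 lower in ATRA over VitaminA, 0 and 2 in BMS753, and 0 and 2 in BMS961+BMS641. These counts stand against the 31.8%, 25.8% and 32.7% of all genes. Lama3, a laminin chain of epithelium, had 579 ppm in ATRA, 143 in BMS753, 95.4 in BMS961+BMS641 and 145 ppm in VitaminA. Lamc1, the gamma chain of most laminins, had 29.9, 69.7, 44.1 and 157 ppm in the same order. Of 8 collagen-binding proteoglycans 5 were listed and compared. Lum had 12.4 ppm in ATRA, 29.9 in BMS753, 12.5 in BMS961+BMS641 and 148 ppm in VitaminA. Of 10 turnover genes, 7 were listed and between 3 and 5 were compared. Mmp14, a membrane collagenase, had 4.04 ppm in ATRA, 11.96 in BMS753, 136 in BMS961+BMS641 and 11.5 ppm in VitaminA.

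Markers of cell types are given beside these results, as levels that are not centred on all genes. All 8 pericyte and smooth muscle markers were listed in every section, none at 0, and they summed to 74.9 ppm in ATRA (69.2 to 82.7), 138 in BMS753 (122 to 149.6), 106 in BMS961+BMS641 (95.4 to 112) and 376 ppm in VitaminA (362 to 382), the section high in Col15a1 and Col16a1. Of the VitaminA sum, Abcc9 made up 175 ppm, Acta2 83.1, Cspg4 56.5, Myh11 25.9, Anpep 24.3, Rgs5 4.38, Kcnj8 3.87 and Tagln 2.81 ppm. Of these 8, 6 were highest in VitaminA, while Kcnj8 was highest in BMS961+BMS641 (12.9 ppm) and Myh11 in BMS753 (39.5 ppm). All 7 endothelial markers were listed and summed to 858 ppm in ATRA (813 to 881), 478 in BMS753 (332 to 770.3), 403 in BMS961+BMS641 (305 to 480) and 981 ppm in VitaminA (875 to 1032). Of these sums, Flt1 made up 485 ppm in ATRA, 284 in BMS753, 208 in BMS961+BMS641 and 807 ppm in VitaminA. Of the others, Tek and Emcn were highest in ATRA, Kdr in VitaminA, and Pecam1, Cdh5 and Tie1 in BMS753. All 10 mesenchymal markers were listed and summed to 328 ppm in ATRA (257 to 366), 215 in BMS753 (183 to 265), 168 in BMS961+BMS641 (156 to 179) and 181 ppm in VitaminA (175 to 186). Fbln1 and Pdgfrb made up 161 and 99.1 ppm of the ATRA sum. Pdgfra, Twist2, Prrx1, Tbx18 and Thy1 were lower in ATRA than in BMS753, while Twist1, Foxc1 and Foxc2 were higher. Thy1, Twist1, Foxc1 and Foxc2 were below 5 ppm in both sections. Without centring, the median of all genes lay at 0.72 for BMS753 over ATRA. After centring, the 6 mesenchymal markers compared had a median of 0.11. The 5 epithelial markers summed to 62.4 ppm in ATRA (58.2 to 68.7), 76.9 in BMS753 (57.6 to 88.7), 1534 in BMS961+BMS641 (1389 to 1684) and 105 ppm in VitaminA (91.9 to 112). In BMS961+BMS641 that sum was Epcam and Cdh1, with 987 and 538 ppm, while Krt8, Krt18 and Krt19 were at 4.03, 3.85 and 0.51 ppm. In ATRA, the section high in Col17a1, the same keratins were at 3.84, 4.18 and 1.27 ppm. The part of these cell types in the collagen differences was not tested.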

How the data were processed

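Polyadenylated RNA was captured on barcoded spots under 4 organoid sections, 1 per treatment, and sequenced by the authors. Per the submitters' processing notes, the genome build was mm9. Not given in the sources used here were the aligner, the counting method and the choice of spots. The authors deposited 1 signal value for each gene and spot, quantile normalised between spots. Sorted, the values of a section's spots are equal up to a spot factor, which was checked. Genes of equal rank were split by their row order, so genes late in the table have positive values where nothing was counted. The lowest class of ranks was therefore set at 0. Col6a2, for instance, was positive in 99.3% of VitaminA spots and above the lowest class in 16.1%. The index of a class was taken as the count. Class sums came to between 77.6% and 84.6% of the recovered totals, because high counts are not all told apart. Whether the counts are reads or molecules is not known, and intervals are exact (Poisson or Clopper-Pearson, 95%) and cover counting error alone.

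A level is the mean signal over spots in ppm of the section's sum. Levels were compared as log2 ratios after 1 ppm was added as a pseudocount, for genes that reached 5 ppm in 1 of the sections, and centred on the median of all compared genes. All 6 pairs of sections were compared. Named were members of at least 20 ppm in either section and at least 2-fold apart, and 11 genes always. Up to 3 genes per pathway list and comparison were named as well. The plan also had the 3 highest of each class in each section, but the levels of Col27a1, Col4a4 and Col4a6 among these are not given. Col1a2, under 20 ppm, was one of those always named. Spans were matched for 22184 of 22218 symbols, with RefSeq's GRCm38.p6 table. Moran's I used 8 grid neighbours and log2 of the signal plus 1. The members, lists and comparisons were chosen with earlier results of these data known. The alternatives changed the lowest class, the spot factor, the pseudocount, the filter, the centring, the genes and spots included and the summary over spots. Those with count classes, without shared positions and without the Col1a1 positions were chosen after seeing the data. The steps were tested on simulated data. Software was numpy 2.4.6, scipy 1.17.1, pandas 2.3.3 and matplotlib 3.10.9 under Python 3.11.15. The series' other data types were left out.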

Additional observations from a re-analysis of the deposited data

How the results depend on the processing

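No paired analysis was possible because each treatment has 1 section. For the same reason no section could be left out of a comparison. Of the 56 ratios of named collagen genes, none changed sign under any of the 11 alternatives applied to them. They stayed 2-fold apart for 56 of 56 without the top 10 genes, 55 with genes of at least 20 ppm, 54 with the spot factor divided out or without a filter, and 52 with a pseudocount of 5 ppm or without shared positions. They did so for 51 without edge spots or with count classes, 46 with the lowest class kept, 43 without centring and 19 in shares of spots. Every median of the members that turned sign is among the values that follow. With the lowest class kept as deposited, the members' median was -0.017 for ATRA over VitaminA, -0.069 for BMS753 over VitaminA, -0.24 for BMS961+BMS641 over VitaminA and -0.18 for BMS961+BMS641 over BMS753. With the lowest class kept as deposited, the fibrillar sum was 362 ppm in ATRA, 739 ppm in BMS753, 932 ppm in BMS961+BMS641 and 921 ppm in VitaminA. With the lowest class kept as deposited, the basement membrane sum was 372 ppm in ATRA, 601 ppm in BMS753, 369 ppm in BMS961+BMS641 and 804 ppm in VitaminA. With the lowest class kept as deposited, the sum of the other collagens was 3678 ppm in ATRA, 2051 ppm in BMS753 and 2251 ppm in VitaminA. With the spot factor divided out, the members' median was -0.12 for BMS961+BMS641 over ATRA and -0.18 for BMS961+BMS641 over BMS753. With a pseudocount of 5 ppm, the members' median was 0.14 for ATRA over VitaminA, -0.0032 for BMS961+BMS641 over VitaminA and 0.018 for BMS753 over ATRA. With genes of at least 20 ppm, the members' median was -0.12 for BMS961+BMS641 over VitaminA. Without a filter on level, the members' median was 0.023 for BMS753 over ATRA, against -0.094 with it. The number of members 2-fold apart was then 9 for BMS753 over VitaminA, 20.9% of the members against 23.3% of all genes. Without centring, the members' median was -0.37 for ATRA over VitaminA, 0.36 for BMS753 over VitaminA, -0.48 for BMS961+BMS641 over VitaminA, 0.63 for BMS753 over ATRA and -0.93 for BMS961+BMS641 over BMS753. The number of members 2-fold apart was then 9 for BMS753 over VitaminA and 20 for BMS961+BMS641 over BMS753. That is 20.9% and 46.5% of the members, against 26.5% and 42.3% of all genes. With the share of spots in place of the level, the members' median was -0.047 for BMS961+BMS641 over VitaminA and -0.17 for BMS961+BMS641 over BMS753, and the number of members 2-fold apart was 6 for ATRA over VitaminA, 0 for BMS753 over VitaminA, 1 for BMS961+BMS641 over VitaminA, 7 for BMS753 over ATRA, 6 for BMS961+BMS641 over ATRA and 1 for BMS961+BMS641 over BMS753. Without edge spots, the members' median was -0.067 for BMS961+BMS641 over VitaminA. With count classes, the members' median was -0.024 for BMS961+BMS641 over VitaminA, and the fibrillar sum was 482 ppm in ATRA, 952 ppm in BMS753, 1233 ppm in BMS961+BMS641 and 1129.6 ppm in VitaminA. With count classes, the basement membrane sum was 571 ppm in ATRA, 961 ppm in BMS753, 611 ppm in BMS961+BMS641 and 1111 ppm in VitaminA. With count classes, the sum of the other collagens was 4282 ppm in ATRA, 2617 ppm in BMS753, 1771 ppm in BMS961+BMS641 and 2721 ppm in VitaminA. Without shared grid positions, the members' median was -0.019 for BMS961+BMS641 over VitaminA, -0.23 for BMS753 over ATRA and -0.46 for BMS961+BMS641 over ATRA, and the number of members 2-fold apart was 10 for BMS753 over VitaminA and 11 for BMS961+BMS641 over BMS753. The cause of these changes was not tested. The level of Col1a1 without its leading positions is given above. With 1 section per treatment, a difference between treatments cannot be told apart from one between sections, organoids or libraries, and genes with few counts, such as Col1a2 and Col6a1, have wide counting intervals.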

Other observations

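Some collagen genes had a highest level less than 2 times their lowest. Col28a1 had 103 ppm in ATRA, 148 in BMS753, 113 in BMS961+BMS641 and 90.6 ppm in VitaminA. Col19a1, a fibril-associated collagen known in mouse for its part in hippocampal synapses, had 123, 154, 105 and 161 ppm in the same order. Col13a1, a transmembrane collagen of the neuromuscular junction, had 58.0, 106, 89.3 and 103 ppm. Its ATRA quadrants (49.4 to 75.0) lay below those of BMS961+BMS641 (77.5 to 101) and VitaminA (101 to 106). Before centring, 32 of the 43 genes had a highest level at least 2 times their lowest, 17 at least 3 times and 5 at least 10 times. The same was not counted over all genes, so these counts are not a result about the family.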
